A study of Mus musculus with 2 samples.

Results

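The immunity-related GTPases (IRGs) described here are 8 genes, Irgm1, Irgm2, Igtp, Iigp1, Tgtp1, Tgtp2, Ifi47 and Gm12250, taken from a table of 16463 mouse genes by exact match of the gene symbol. All 8 were in the table. RNA enriched for polyadenylated molecules was sequenced from unstimulated bone marrow-derived macrophages, cells grown for 5 days in medium with 10% serum and 10% supernatant of L929 cells, which supplies macrophage colony-stimulating factor. The WT library carries the Lyz2-Cre transgene. The TKO library carries mir-106a~363-/-, mir-106b~25-/- and mir-17~92 flox/flox together with the same Lyz2-Cre, so both genotypes express Cre from the Lyz2 gene, which is active in myeloid cells, and the floxed cluster is lost only where that Cre acts. Both are labelled C57BL/6J. Neither age and sex nor the number of mice behind each library is stated in the labels.

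Each genotype had 1 library, with 10877897 reads assigned to genes in WT and 10656431 in TKO. There is therefore no replicate check, no test was run, and each comparison is between these 2 libraries, not between genotypes. Intervals are exact 95% intervals of counting error only, since 1 library per genotype gives no estimate of replicate error. These reads carry no molecular identifiers, so PCR copies cannot be told from separate molecules and the intervals may be too narrow. The 8 macrophage markers, Csf1r and Mpeg1 among them, summed to 3543 FPKM (fragments scaled to gene length and library depth) in WT and 3790 in TKO, and 0 of the 8 were called. Their log2 ratios ran from -0.43 (Adgre1) to 0.68 (Fcgr1). Lyz2 itself had 373 and 397 reads. Mir17hg, the host transcript of the floxed cluster, had 8 reads in WT and 42 in TKO, a gene-level count that does not check the deletion of the microRNA hairpins.

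IRGs are large GTPases whose transcription is induced by interferons, most strongly by interferon gamma. In mouse cells the effector IRGs load onto the vacuoles that hold Toxoplasma or Chlamydia and help to break their membranes. The regulatory IRGs sit on the cell's own membranes and hold the effectors in the inactive, GDP-bound state. The classes are named after a stretch of the nucleotide-binding loop, the G1 motif: the effectors carry the usual lysine (GKS), and the regulators carry methionine in its place (GMS).

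The coding bases of the G1 motif are shown because they divide the members into these classes; the codon that differs is in capitals. They were read 5′ to 3′ on the coding strand from GENCODE M21 transcripts (GRCm38), and all lie on chromosome 11 inside a coding exon, except that Gm12250 is annotated there as a processed pseudogene and its longest open reading frame was used.
Irgm1 (chr11:48866761-48866784, minus strand): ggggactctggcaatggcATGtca
Irgm2 (chr11:58219695-58219718, plus strand): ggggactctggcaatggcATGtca
Igtp (chr11:58206275-58206298, plus strand): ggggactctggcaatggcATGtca
Tgtp1 (chr11:48987667-48987690, minus strand): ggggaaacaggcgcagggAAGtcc
Tgtp2 (chr11:49059534-49059557, minus strand): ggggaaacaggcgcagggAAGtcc
Ifi47 (chr11:49095648-49095671, plus strand): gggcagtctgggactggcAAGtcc
Gm12250 (chr11:58187981-58188004, plus strand): ggggagacaggggcagggAAGtcc
The 3 regulators had the same 24 bases, with ATG for methionine, and each of the other members had AAG for lysine, Iigp1 included. Over the whole coding sequence the regulators were 67.3% to 73.1% identical to each other, and regulators and effectors were 57.2% to 61.7% identical. The effectors were 60.1% to 99.7% identical to each other, a range that overlaps the one between the classes. Tgtp1 and Tgtp2 matched at 1244 of 1248 aligned coding bases (99.7%).

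The upstream sequences are shown because the interferon-activated factors bind short motifs there. Windows of 300 bases (250 before and 50 after the start, RefSeq GRCm38.p6) were found for 7 of the 8 members; Iigp1 had none. Both strands were searched for the core of the interferon-stimulated response element (ISRE), GAAANNGAAA, and for the gamma-activated site (GAS), TTCNNNGAA. The 100 bases before each start are given 5′ to 3′ on the gene's strand, with motif matches in capitals.
Irgm1 (chr11:48871421-48871520, minus strand): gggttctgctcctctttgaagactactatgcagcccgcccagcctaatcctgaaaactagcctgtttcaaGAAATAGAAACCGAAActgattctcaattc
Irgm2 (chr11:58214877-58214976, plus strand): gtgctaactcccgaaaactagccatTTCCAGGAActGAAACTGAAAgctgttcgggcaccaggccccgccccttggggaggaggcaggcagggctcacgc
Igtp (chr11:58199456-58199555, plus strand): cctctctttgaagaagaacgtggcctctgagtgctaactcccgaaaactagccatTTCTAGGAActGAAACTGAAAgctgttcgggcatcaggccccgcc
Tgtp1 (chr11:48992247-48992346, minus strand): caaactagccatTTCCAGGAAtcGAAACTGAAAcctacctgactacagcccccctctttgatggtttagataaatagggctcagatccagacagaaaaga
Tgtp2 (chr11:49064213-49064312, minus strand): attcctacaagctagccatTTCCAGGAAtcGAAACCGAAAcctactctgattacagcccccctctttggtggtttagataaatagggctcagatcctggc
Gm12250 (chr11:58183743-58183842, plus strand): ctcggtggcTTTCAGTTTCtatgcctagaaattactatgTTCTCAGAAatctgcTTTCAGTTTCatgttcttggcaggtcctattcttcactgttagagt
Ifi47 (chr11:49076487-49076586, plus strand): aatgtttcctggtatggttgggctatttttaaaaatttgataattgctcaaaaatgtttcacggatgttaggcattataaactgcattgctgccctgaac

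The ISRE core was in 6 of the 7 windows and the GAS in 5, while 3.44% and 8.30% of all 32851 promoter windows held them. Igtp, Irgm2, Tgtp1 and Tgtp2 shared 1 arrangement, a GAS, 2 other bases and an ISRE core on the same strand (TTCNNNGAANNGAAANNGAAA). That arrangement, searched for after the windows had been read, was in 5 of the 32851 windows, and the fifth belonged to Gm12185, an IRG relative in the same gene cluster. The 5 windows are not unrelated sequences. Those of Igtp and Irgm2 share long runs of bases around the motifs, and so do those of Tgtp1, Tgtp2 and Gm12185. Irgm1 had a pair of overlapping ISRE cores and no GAS. Gm12250 had a GAS between a pair of ISRE cores that read on the opposite strand. The Ifi47 window held neither motif, which says only that these letters were not in it. A match is a description of letters, not evidence of binding.

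**Figure D1:**
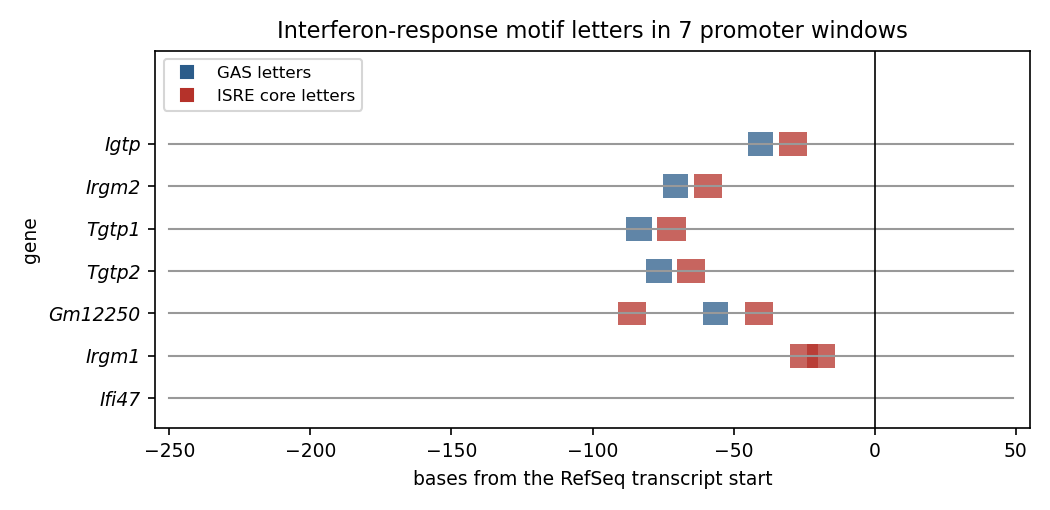
Positions of ISRE core and GAS matches in the promoter windows of the 7 members that had one; the horizontal axis is the distance from the annotated start in bases, with the start at 0. Igtp, Irgm2, Tgtp1 and Tgtp2 have the GAS, then 2 other bases and the ISRE core, and Ifi47 has no match.

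Every member had more reads in TKO than in WT. Summed over the 8 genes, 1924 reads in WT and 5354 in TKO gave a 2.91-fold higher level in TKO (interval 2.76 to 3.07) after TMM scaling of the libraries. By the size rule used here, a gene was called higher or lower if it differed at least 2-fold, its interval excluded no change, and it had at least 20 reads in 1 library. Of the 8 members 7 reached the read minimum, and all 7 of those were called higher, beside 2.43% of the 11525 genes that reached it; 2.3% were called lower. Each of the 7 had over 20 reads in both libraries. The median log2 ratio of TKO over WT was 1.49 for these 7 members (range 1.18 to 2.86) and 0.0043 for all genes past the minimum. In bulk RNA a larger share of expressing cells and more RNA per cell cannot be told apart.

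In the authors' deposited table all 8 members had a false discovery rate of at most 0.05 and a log2 ratio of at least 1, as did 1.82% of its 16463 genes. The highest of the 8 rates in the authors' deposited table was 0.00136. That comparison is also between 1 library and 1 library. For Tgtp1 it rests on 0 reads in WT and 13 in TKO, with the placeholder 0.01 as its FPKM in WT. The rates were read as a score, since some deposited values exceed 1.

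**Figure D2:**
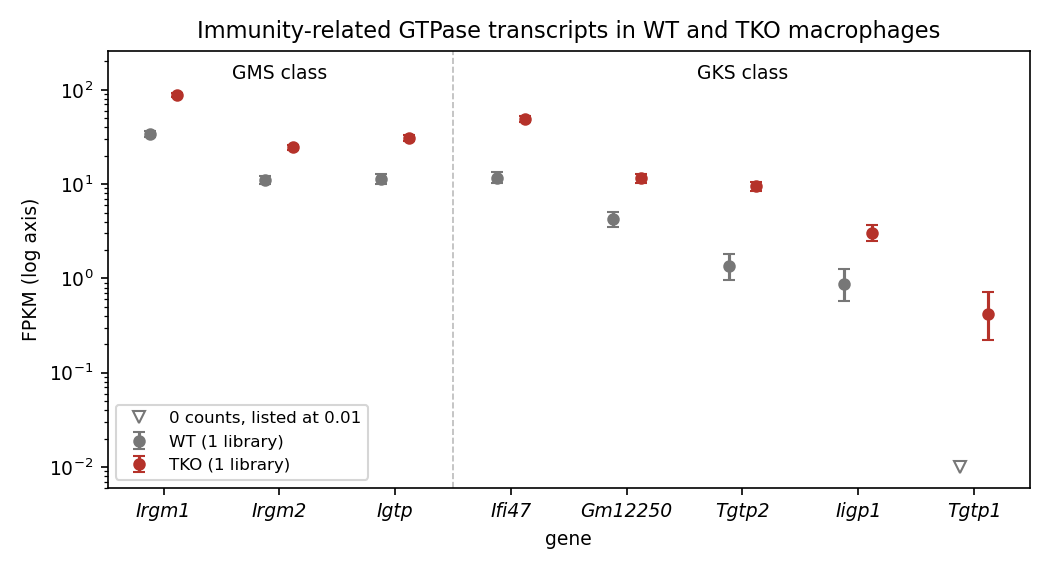
FPKM of each member in the WT and TKO libraries on a log axis; points are the single library of each genotype and bars are exact 95% counting intervals. Every TKO point lies above its WT point, and Irgm1 is the most abundant member in both libraries (33.9 and 88.4 FPKM).

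Among the regulators, Irgm1 (Entrez 15944, chromosome 11, 48865245 to 48871420), which locates to the Golgi and to phagosome membranes and is required for resistance to many intracellular bacteria, was the most abundant IRG. It was at 33.9 FPKM (interval 31.6 to 36.3) in WT and at 88.4 FPKM (84.6 to 92.2) in TKO. The difference was 2.68-fold (2.47 to 2.91; 821 and 2100 reads), and Irgm1 moved from rank 2330 to rank 840 of the table by FPKM. Irgm2 (Entrez 54396, chromosome 11, 58214977 to 58222783), a Golgi-associated regulator, was at 11.2 FPKM in WT and 24.7 in TKO, 2.26-fold higher (2.02 to 2.54; 433 and 936 reads). Its log2 ratio of 1.18 was the lowest of the measured members. Igtp, also named Irgm3 (Entrez 16145, chromosome 11, 58199556 to 58207592), is found on the endoplasmic reticulum and lipid droplets. It was at 11.4 FPKM in WT and 30.9 in TKO, 2.79-fold higher (2.41 to 3.23; 255 and 679 reads).

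The 3 regulators thus lay close together in ratio. The log2 ratio of Igtp exceeded that of Irgm1 by 0.058, with an interval from -0.18 to 0.30 that includes no difference. Irgm1 exceeded Irgm2 by 0.24 (0.037 to 0.45) and Igtp exceeded Irgm2 by 0.30 (0.030 to 0.57). The RefSeq genes do not overlap, but in GENCODE M21 Irgm2 starts at 58199618, inside Igtp, and 12.3% of the 50-base stretches of Igtp transcripts also occur in other genes' transcripts. Their summed reads, which any misassignment between them leaves in place, were 688 and 1615, 2.46-fold higher in TKO (2.25 to 2.69).

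Among the effectors, Ifi47, also named Irgd (Entrez 15953, chromosome 11, 49076587 to 49096987), had the highest level. It was at 11.7 FPKM (10.2 to 13.3) in WT and 49.02 FPKM (45.9 to 52.3) in TKO, or 4.30-fold higher (3.71 to 5.00; 221 and 908 reads). In WT Ifi47 stood beside Irgm2 and Igtp, with overlapping intervals, and in TKO it stood above both. Its log2 ratio exceeded that of Irgm1 by 0.68 (0.44 to 0.93) and that of Igtp by 0.63 (0.32 to 0.93).

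Tgtp1 and Tgtp2, together known as Irgb6, encode an effector that is among the first to reach the Toxoplasma vacuole. Tgtp2 (Entrez 100039796, chromosome 11, 49057196 to 49064212) was at 1.34 FPKM (0.962 to 1.82) in WT and 9.45 (8.38 to 10.6) in TKO. Its 41 and 285 reads gave the highest ratio of the 7 measured members, 7.27-fold (5.23 to 10.4), which ranked 29 among the tested genes. Tgtp1 (Entrez 21822, chromosome 11, 48985329 to 48992246) had 0 reads in WT and 13 in TKO, below the read minimum. Against a floor of 3 reads in WT it was at least 4.53-fold higher, with a lower counting limit of 3.19-fold, and the deposited FPKM are the placeholder 0.01 in WT and 0.42 in TKO. Because 89.4% of the 50-base stretches of Tgtp1 transcripts also occur in Tgtp2, the split of reads between them is uncertain. The pair together had 41 reads in WT and 298 in TKO, 7.61-fold higher (5.47 to 10.8).

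Gm12250 (Entrez 631323, chromosome 11, 58183843 to 58190198; RefSeq synonym Irgb10) encodes an effector known for its action on bacterial membranes. It was at 4.24 FPKM (3.53 to 5.05) in WT and 11.6 (10.4 to 12.9) in TKO, 2.80-fold higher (2.28 to 3.47; 125 and 335 reads). Its ratio was within counting error of that of its neighbour Igtp, with a difference in log2 ratio of 0.0093 (-0.36 to 0.38). Iigp1, also named Irga6 (Entrez 60440), is the effector whose GTPase cycle has been studied most. It is the member outside chromosome 11, at 60373616 to 60392634 of chromosome 18. It was among the scarcest members, at 0.87 FPKM (0.578 to 1.26) in WT and 3.04 (2.47 to 3.70) in TKO. The 28 and 98 reads gave a 3.66-fold difference (2.39 to 5.79), and its ratio was not distinguishable from those of Gm12250 (difference in log2 ratio 0.39, -0.31 to 1.12) or Ifi47 (-0.23, -0.89 to 0.47).

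By class, the regulators were 2.58-fold higher in TKO (2.43 to 2.74), with 1509 summed reads in WT and 3715 in TKO. The effectors summed to 415 and 1639 reads, a 4.13-fold difference (3.71 to 4.61). The log2 ratio of the effectors exceeded that of the regulators by 0.68 (0.50 to 0.86). Effectors made up 21.6% of the members' reads in WT (exact binomial interval 19.8% to 23.5%) and 30.6% in TKO (29.4% to 31.9%). Among the 8 members the regulators therefore held the larger share of reads in both libraries, and the effectors' share was larger in TKO. These class sums cover the 8 members only. Relatives with the lysine motif lie outside them. Among these are 9930111J21Rik1 (986 reads in WT and 862 in TKO), Gm5431 (243 and 663), Gm4841 (234 and 329) and 9930111J21Rik2 (94 and 152). In WT 9930111J21Rik1 alone had more reads than the listed effectors together. The larger ratio and the rising share of the effectors therefore hold for the listed members. They cannot be read as those of all genes with the lysine motif. The gap is not uniform within the effector class, since Gm12250 lay at the level of Igtp and Tgtp2 exceeded Ifi47 by 0.76 in log2 ratio (0.23 to 1.31).

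**Figure D3:**
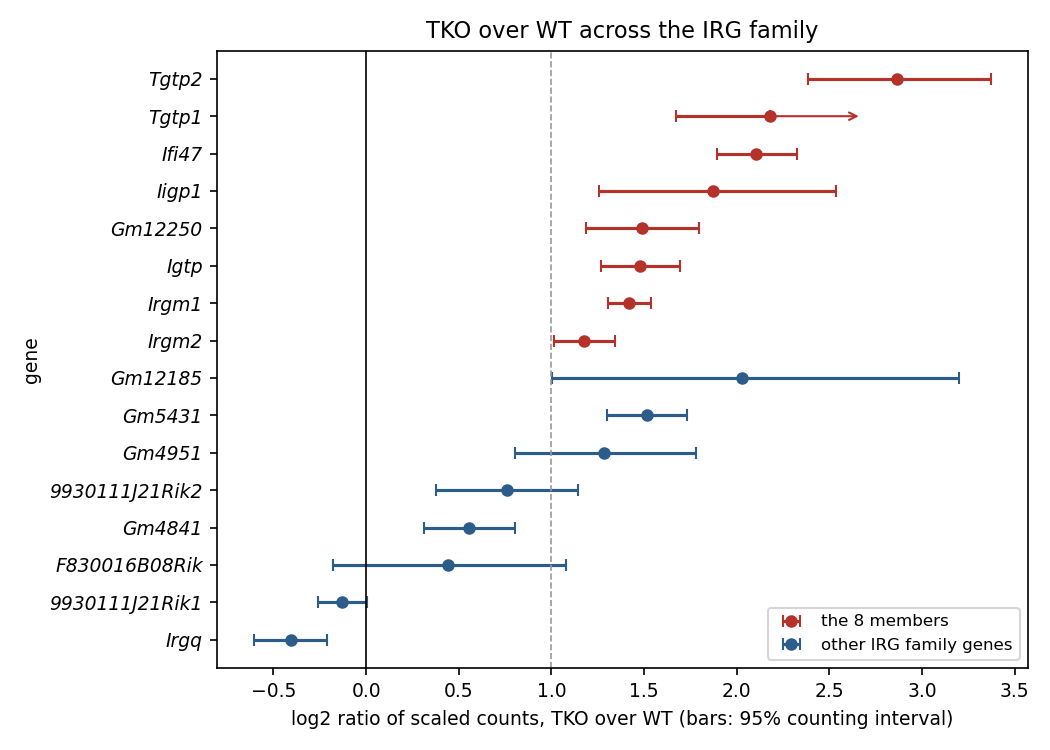
Log2 ratio of TKO over WT for the members and for the other IRG family genes, with 95% counting intervals; the arrow for Tgtp1 marks a lower bound against the floor of 3 reads. The 7 measured members lie between 1.18 and 2.86, and the other family genes spread from -0.41 (Irgq) to 2.03 (Gm12185, from 10 and 39 reads).

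Of 14 further IRG family names, 9 were in the table. The remaining names included Irgc, Ifgga2, Ifgga3 and Ifgga4, RefSeq synonyms of Irgc1, Gm4951, Gm4841 and F830016B08Rik, which are among the 9. Of the 9, 7 reached the read minimum. Of these 7, 2 were called higher and 0 lower, with a median log2 ratio of 0.56. Gm5431, a tandem IRG gene with a G1 motif in each of its GTPase units, had 243 reads in WT and 663 in TKO (7.49 and 20.8 FPKM), a log2 ratio of 1.51 (1.30 to 1.73). Gm4951 had 52 and 121 reads, a log2 ratio of 1.28 (0.80 to 1.78). The others did not reach 2-fold. Log2 ratios were 0.76 (0.38 to 1.15) for 9930111J21Rik2, 0.56 (0.31 to 0.81) for Gm4841 and 0.44 (-0.18 to 1.08) for F830016B08Rik.

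The most abundant of these relatives was not called in either direction. It was 9930111J21Rik1, another tandem IRG, which had 986 reads in WT and 862 in TKO (23.3 and 20.8 FPKM), a log2 ratio of -0.13 (-0.26 to 0.0050). Its log2 ratio was below that of Gm5431 by a difference of 1.64 (1.39 to 1.90). Irgq, a divergent member of the family, had 512 and 369 reads and a log2 ratio of -0.41 (-0.60 to -0.21). Irgc1 and Iigp1b each had 0 reads in WT and 1 in TKO, too few for a ratio. Reads of the tandem genes may be split, since 79.8% of the 50-base stretches of 9930111J21Rik1 occur in other genes' transcripts.

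The members lie in 3 groups of neighbouring genes, from Irgm1 to Ifi47, from Gm12250 to Irgm2, and around Iigp1. Among the 5 nearest table genes on each side, and those in between, 28 were no IRG genes and 19 of these reached the read minimum. None of the 19 was called higher or lower, and their log2 ratios ran from -0.19 to 0.80 with a median of 0.032. Psme2b, which lies inside the first group, had 138 and 150 reads (log2 ratio 0.19, -0.16 to 0.53). The highest was Zfp692 beside Irgm2, with 60 and 100 reads. Gm12185, which RefSeq also names Irgb2b1 and which the list of relatives did not hold, was called higher at this location, with 10 and 39 reads, past the minimum through TKO alone, and a log2 ratio of 2.03 (1.00 to 3.20).

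**Figure D4:**
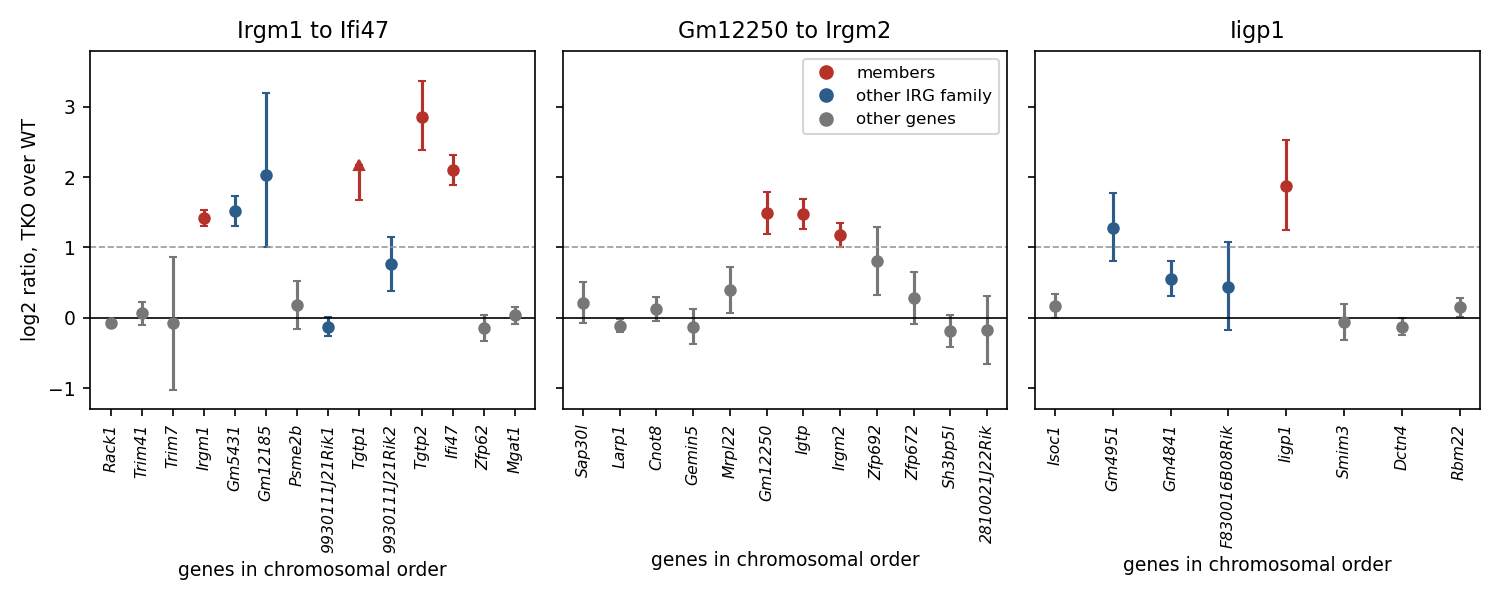
Log2 ratio of TKO over WT, with 95% counting intervals, for the members (red), other IRG family genes (blue) and the remaining genes past the read minimum (grey) in chromosomal order at the 3 locations; the dashed line marks 2-fold. The non-IRG genes lie between -0.19 and 0.80, below every member.

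The guanylate-binding proteins (GBPs), interferon-induced GTPases that act with the IRGs on pathogen vacuoles, had 7 genes past the minimum, and 6 of these were called higher; the median of the 7 log2 ratios was 2.01, and they ranged from 0.77 to 2.57. Gbp2 had 207 and 865 reads (7.69 and 32.8 FPKM), a log2 ratio of 2.13 (1.91 to 2.35). Gbp3 had 214 and 822 reads (log2 ratio 2.01) and Gbp6 39 and 160 (2.10), while Gbp4 had 6 and 34 (2.57, 1.30 to 4.11). Gbp5 did not reach 2-fold (259 and 421 reads, 0.77). Gbp4 reached the read minimum through TKO alone. The order of the GBP and IRG medians depends on the scale: on log2 of FPKM plus 1 the GBP median was 1.31 and that of the IRG members 1.36.

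In the interferon-gamma pathway, which drives IRG transcription, 2 of 12 genes past the minimum were called higher and 0 lower, with a median log2 ratio of 0.29. Socs1, an inhibitor of JAK kinases, had 12 and 28 reads (1.29, 0.27 to 2.40) and reached the minimum through TKO alone. Irf1, a factor that binds the ISRE core, had 548 and 810 reads (0.63, 0.47 to 0.79), and Socs3 had a log2 ratio of 0.53. The receptor chains stayed under 2-fold, with log2 ratios of 0.21 for Ifngr2, the most abundant gene of this list, and -0.028 for Ifngr1. Ifng itself was not analysed here.

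In the type I interferon pathway 3 of 8 genes were called higher and 0 lower, with a median log2 ratio of 0.57. Irf7, a regulator of type I interferon genes, had 557 and 2556 reads (2.26, 2.13 to 2.40). Usp18, which dampens signalling at the receptor, had 159 and 660 reads (2.12, 1.87 to 2.38), and Stat2 had 870 and 2326 (1.48, 1.37 to 1.60). Ifnar2, the most abundant of the list, had a log2 ratio of 0.088. Ifnb1 and Ifna4 were not analysed here.

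The autophagy conjugation proteins, which direct IRGs to vacuoles, had 1 of 10 genes called higher and 0 lower, with a median of 0.17. Atg3, the enzyme that transfers LC3-type proteins to lipid, had 460 and 957 reads (1.12, 0.96 to 1.29). Atg16l1 had a log2 ratio of 0.68, Atg5 of 0.23, and Gabarap, the most abundant, 0.25 (3855 and 4380 reads). Of 7 ubiquitin ligases and adaptors recruited to IRG-coated vacuoles, 0 were called in either direction, with a median of 0.12. Trim21 had the largest ratio there (365 and 540 reads, 0.63), Optn was at 0.42, Traf6 at -0.32, and Sqstm1, which encodes p62, was at 0.29 (7721 and 9041 reads).

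**Figure D5:**
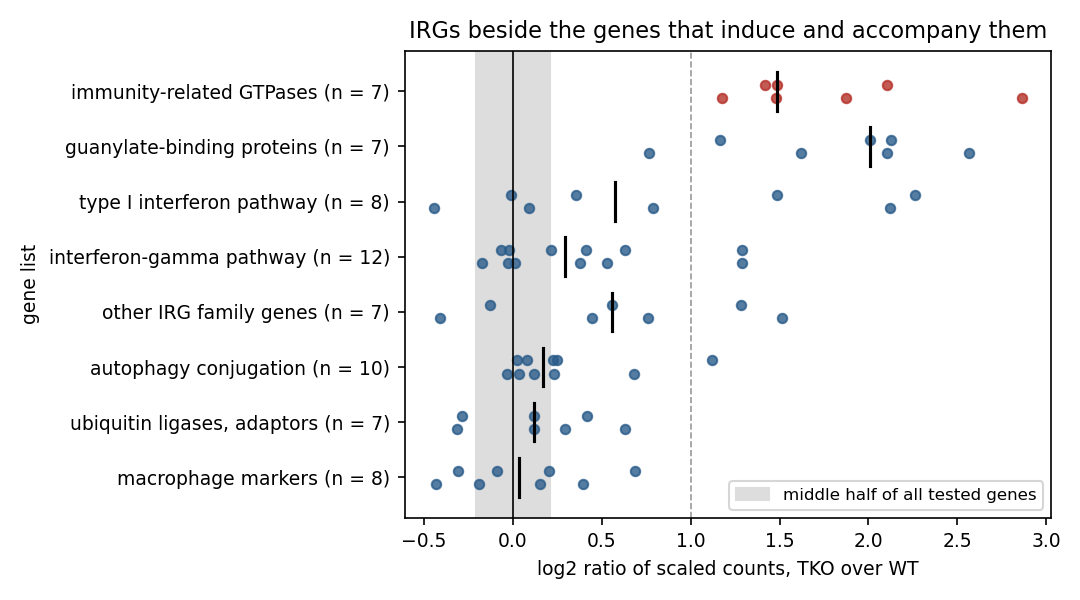
Log2 ratio of TKO over WT for every gene past the read minimum in the members, each list and the macrophage markers; each point is a gene, black ticks are medians, the dashed line marks 2-fold, and the shaded band is the interquartile range of all 11525 genes past the minimum (-0.21 to 0.21). The members and the GBPs lie above the band. The autophagy and ubiquitin lists have their medians inside it (0.17 and 0.12), with genes on either side from -0.32 (Traf6) to 1.12 (Atg3).

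The TKO clusters encode microRNAs of 4 seed families, which pair with transcripts through bases 2 to 8, in capitals here (RefSeq mature sequences, 1 for each family).
miR-17-5p: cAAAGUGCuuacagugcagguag
miR-18a-5p: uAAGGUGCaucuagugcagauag
miR-19b-3p: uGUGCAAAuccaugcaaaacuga
miR-92a-3p: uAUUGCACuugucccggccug
The complements of these seeds (GCACTTT for miR-17-5p, GCACCTT for miR-18a-5p, TTTGCAC for miR-19b-3p and GTGCAAT for miR-92a-3p) were searched for on the transcript strand of annotated 3′ untranslated regions. None of the 7 members that have one (304 to 2110 bases long) held any of the 4. Of 10599 genes searched the same way, 31.2% held at least 1. A missing match says only that these letters are not in the annotated region.

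Markers of other cell types were read beside the members. Dendritic cell markers were higher in TKO, with 4 of the 5 past the minimum called higher and a summed level of 17.99 FPKM in WT and 43.2 in TKO. They were Itgax (342 and 843 reads), Cd24a (177 and 414), Flt3 (10 and 27) and Dpp4 (8 and 22), of which Flt3 and Dpp4 reached the minimum through TKO alone. Xcr1, also past the minimum, was not called (25 and 34 reads, log2 ratio 0.51, -0.28 to 1.32). Of the other defining markers, Zbtb46 had 5 and 3 reads, Clec9a 1 and 4, and Siglech 4 and 6. Fibroblast markers were lower, with 5 of 7 past the minimum called lower, 92.6 FPKM in WT and 26.3 in TKO. Their part in the IRG difference was not tested. T and NK cell markers would mark a source of interferon gamma. Of 9 listed, 5 were in the table, summing to 1.45 and 2.02 FPKM, and none of the 5 reached the minimum. Cd3d had 10 reads in WT and 19 in TKO, Cd8a 16 and 16, Klrb1c 6 and 4, Ncr1 0 and 1, and Prf1 1 and 0. B cell markers summed to 2.25 and 1.78 FPKM, and neutrophil markers to 21.7 and 20.8 FPKM. Among 3 neutrophil markers past the minimum, S100a8 was called higher (9 and 21 reads, through TKO alone) and Mmp9 lower (52 and 19).

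The 5 genes with established names whose pair of FPKM values lay closest to the members' median pair (6.89 in WT and 16.9 in TKO) were Herc6, Sorbs3, Snora75, H2-DMa and Aoah. Likeness was the distance between log2 FPKM values over the 2 libraries, and ran from 0.092 for Herc6 to 0.214 for Aoah. Herc6, an interferon-induced ubiquitin ligase, had 6.93 and 18.01 FPKM. H2-DMa, which helps to load peptides on MHC class II, had 7.86 and 16.3 FPKM. Snora75 rests on 6 and 13 reads.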

How the data were processed

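RNA of 2 unstimulated macrophage libraries, 1 for each genotype, was analysed from 1 deposited table; its columns are named by genotype at 0 h, and 0 columns of sample values went unmatched. The tools were HISAT2 2.0.4, RSEM 1.2.12 and Bowtie2 2.2.5 on mm10, per the submitters' processing notes, without the role of each. The labels name no annotation for the counting. The authors deposited expected counts, an estimate of the reads for each gene, and 21.3% (WT) and 21.1% (TKO) were not whole. The deposited FPKM, so named per the file headers, are listed at 0.01 for genes at 0 counts. The authors' log2 ratio compares TKO with WT. The labels do not name the test behind the authors' p-value. The authors' FDR was read as a score, since 713 deposited values exceed 1.

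Expected counts were rounded and scaled with TMM factors (edgeR 4.0.16, R 4.3.3; 1.01 and 0.988). No edgeR test was run. Ratios had no pseudocount, with 0 replaced by a floor of 3 counts, and exact conditional binomial 95% intervals; level intervals were exact Poisson. Intervals for differences of log2 ratios were exact conditional intervals of the odds ratio (scipy 1.17.1). Called genes had a log2 ratio of 1 or more in size, an interval excluding 0 and at least 20 counts in 1 library. In simulated counts for 16463 genes of this comparison, 99 of 100 genes at an absolute log2 ratio of 1.5 and 29 of 11250 unchanged genes were called. The simulation held counting error only, so it gives no error rate for differences between libraries. Its changed genes were drawn from genes with mean counts well above the minimum of 20, so it does not cover changed genes near that minimum. Alternatives were library totals, DESeq2 1.42.0 size factors, log2 of FPKM plus 1, a removed gene-length trend, count minimums of 0 and 100, thresholds of 1.5-fold and 4-fold, and 99% intervals. Named genes were all members and IRG relatives, the 4 largest ratios and the most abundant gene of each list, 5 expression neighbours, called neighbouring genes and Mir17hg; 1 gene that this rule names in each of the interferon lists is not reported here. Members and lists were chosen with earlier results of these data known. Coordinates and promoters are from RefSeq GRCm38.p6 and transcripts from GENCODE M21; protein sequences were not used here.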

Additional observations from a re-analysis of the deposited data

How the results depend on the processing

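No paired analysis was possible because each genotype had 1 library, and for the same reason no library could be left out. Of 199 alternative values, 184 stayed within their counting interval (ratios) or within 1.5 times (counts, and medians as folds), 15 moved further, and 0 changed direction. Only ratios and medians could change direction. The 199 also include numbers of called genes, among them the numbers called lower in the lists, which were 0 in every setting. All members past the minimum were called higher with library totals, DESeq2 size factors, FPKM plus 1, the length trend removed, 1.5-fold and 99% intervals (7 members), with no minimum (8) and with a minimum of 100 counts (6). At 4-fold 2 remained, Ifi47 and Tgtp2. On the log2 of FPKM plus 1, which shrinks low genes by construction, the values were 1.11 for Iigp1, 0.49 for Tgtp1, 2.16 for Tgtp2 and 2.21 for Tgtp1 and Tgtp2 together, and the GBP median was 1.31. The number called higher among other IRG genes was 1 with FPKM plus 1 and 0 at 4-fold. In the interferon-gamma list it was 1 with FPKM plus 1, with a minimum of 100 and with 99% intervals, and 0 at 4-fold. For autophagy it was 2 at 1.5-fold and 0 at 4-fold, and for the ubiquitin list 1 at 1.5-fold. Over all genes, 280 were higher and 265 lower; 591 and 636 at 1.5-fold, 76 and 26 at 4-fold, 213 and 122 with FPKM plus 1, and 164 and 95 with a minimum of 100. With library totals the split was 262 to 292. Depth limits Tgtp1 and Iigp1 most, with 13 and 98 reads in TKO.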

Other observations

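Among genes past the read minimum, 365 had an ISRE core in their promoter window, and 49 of them (13.4%) were called higher and 5 lower. Without the members the share was 44 of 360 (12.2%). Of 758 genes with a GAS, 20 (2.64%) were called higher and 17 lower, and without the members 16 of 754 (2.12%). These are descriptions of 2 libraries; the share over all genes was 2.43%.

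The tandem genes 9930111J21Rik1 and 9930111J21Rik2, which share 76.2% of the former's 50-base stretches, had log2 ratios that differed by 0.89 (0.48 to 1.30). Their summed reads were 1080 in WT and 1014 in TKO, a log2 ratio of -0.025 (-0.15 to 0.10). The window of 9930111J21Rik1 held an ISRE core after the start and no GAS, and those of 9930111J21Rik2 and Gm5431 held neither motif. Olfr56, which shares transcript stretches with Ifi47, had 1 read in WT and 10 in TKO.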
